A study of Homo sapiens with 16 samples.

Results

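The alternative allele of *EIF4G2* was compared with the reference allele in the long minigene, a plasmid that carries *EIF4G2* introns 15 to 20 with their exons. The comparison used the RT-PCR libraries labelled long_alt and long, 2 of each, so 4 of the 16 libraries of the series. The labels distinguish these libraries by plasmid and replicate number and name no other treatment. The allele changes the sequence where intron 17 ends, within its 3′ splice site. Both plasmids were expressed from the CMV promoter in HEK293T, an established line of human embryonic kidney origin that is easy to transfect, and RNA was taken a day after transfection. RT-PCR of 2 libraries of non-transfected HEK293T cells (NT) gave the endogenous *EIF4G2* transcripts as a background, with a forward primer in exon 15 in place of the minigene primer and the same reverse primer in exon 21. Each construct is 1 plasmid sequence present in many copies, with 1 promoter that is not that of *EIF4G2*, and HEK293T is 1 line. The p-values below therefore measure the spread between transfections of that line.

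*EIF4G2* encodes a translation initiation factor related to eIF4G that lacks the part which binds the cap-binding protein. Introns are removed by the spliceosome, in which U1 snRNP recognises the 5′ splice site, U2AF the polypyrimidine tract and the AG at the 3′ splice site, and U2 snRNP the branch point. When a 3′ splice site is recognised poorly, the intron can stay in the transcript for longer, the 5′ splice site can be joined to another 3′ splice site nearby, or the next exon can be skipped. Introns of 1 transcript are not removed in strict order from the promoter, and a read that still holds some introns shows which were removed before the others.

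The reference sequences of the 3′ splice sites show what the spliceosome had to recognise at each of the 6 introns. All are written 5′ to 3′ on the minus strand of chromosome 11 in GRCh38, with the last 20 intron bases in lower case and the first 3 bases of the next exon in capitals.
Intron 15: tgtcattgcttgttttttagACA
Intron 16: gatacttgtgttcttcacagGAA
Intron 17: tgttgtatatttctttcaagGCT
Intron 18: aggtggctttgtctcttcagAAA
Intron 19: caagacctctttctgtccagCTT
Intron 20: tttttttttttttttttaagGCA
The site of intron 17 lies at chr11:10800346-10800368, and 13 of its 20 intron bases are pyrimidines, against 12 to 17 of 20 in the other introns. Introns 17 and 20 end in aag and the other 4 introns in tag or cag. The 5′ splice sites of introns 17 and 18, whose order the results turn on, are given with the last 3 exon bases in capitals.
Intron 17: CAGgtagga
Intron 18: CAGgtaaga
Intron 17 spans chr11:10800349-10800431 and has 83 nt, as intron 16 does, and intron 18 spans chr11:10799757-10800089 and has 333 nt. Exon 18 between them, at chr11:10800090-10800348, has 259 nt. All of exons 15 to 21 lie in the coding sequence of the transcript ENST00000339995.11. No sequence is given here for the alternative allele.

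The 4 libraries held 24951 to 49577 reads, of which 92.1% to 93.0% spanned exactly introns 15 to 20. After reads with an undetermined status were left out, 23000 and 26920 reads of long and 45736 and 32095 reads of long_alt were kept, and 3 counts, the limit for a combination that was not seen, are 0.00656% to 0.0130% of a library. Molecules were not tagged before the PCR, and intervals or limits based on read numbers describe counting error alone. The spread between the libraries of a group was larger than that: over combinations, chi-square divided by its degrees of freedom was 16.2 for long and 15.2 for long_alt.

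Among reads with a single retained intron, intron 17 was the one left in most long_alt reads, while intron 18 was the one left in most long and NT reads. The single intron left was intron 17 in 31 of 243 reads (12.8%) and 52 of 666 reads (7.81%) of long, and in 756 of 1287 reads (58.7%) and 895 of 1542 reads (58.0%) of long_alt. The NT libraries gave 14.8% and 12.1%. The long_alt libraries thus lay close together and far above both long and NT. The mean was 58.4% ± 0.495 (SD, n = 2) for long_alt and 10.3% ± 3.50 (SD, n = 2) for long, a difference of 48.1 percentage points (p = 0.333, two-sided exact permutation test of the library percentages, the smallest p that 2 against 2 libraries allow). Intron 17 was 1 of the 6 introns whose share was higher in both long_alt libraries (16.7%), and the other 5 (83.3%) were lower in both. Shares of 1 total cannot all move in the same direction.

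**Figure D1:**
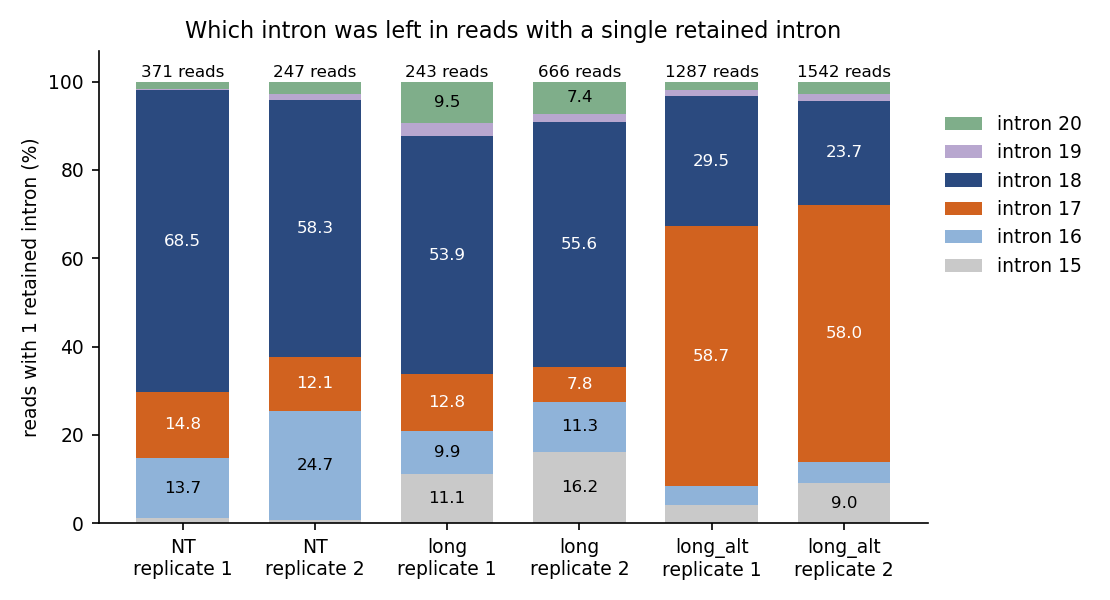
Share of each intron among reads with exactly 1 retained intron, in percent, by library; the number above a bar is its count of such reads, and values over 6% are written in the bar. Intron 17 makes up 58.7% and 58.0% in the long_alt libraries and 7.81% to 14.8% in the long and NT libraries.

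Intron 18, the intron that otherwise stays longest, was the single intron left in 53.9% and 55.6% of such reads of long and in 29.5% and 23.7% of those of long_alt. Its mean was lower by 28.1 points in long_alt. When the reads that held intron 17 were taken out of the total, intron 18 made up 61.8% and 60.3% of the rest in long and 71.6% and 56.6% in long_alt. The 2 groups then overlapped. Intron 15 with 12.7% and 17.6% of that rest in long and 9.98% and 21.5% in long_alt overlapped too, and so did intron 16 with 11.3% and 12.2% against 10.5% and 11.7%. Intron 20 was lower in both long_alt libraries, at 10.8% and 7.98% against 4.52% and 6.80%, and intron 19 was slightly higher, at 3.30% and 1.95% against 3.39% and 3.40%, or 18 and 22 reads of long_alt.

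Reads that held exactly 1 of introns 17 and 18 were used to measure the order of the pair. They came from total RNA, in which an intermediate cannot be told apart from a product that keeps the intron. Intron 17 was left after intron 18 in 40 of 178 reads of long replicate 1, or 22.5% with a 95% Wilson interval of 16.96% to 29.1%. It was left last in 79 of 509 reads of replicate 2 (15.5%, interval 12.6% to 18.9%). In long_alt the counts were 751 of 1189 reads (63.2%, interval 60.4% to 65.9%) and 928 of 1381 reads (67.2%, interval 64.7% to 69.6%). The intron left in most of these reads was therefore intron 18 in both long libraries and intron 17 in both long_alt libraries. The NT libraries, at 17.2% and 21.5%, lay within the range of long. The means were 19.0% ± 4.92 for long and 65.2% ± 2.85 for long_alt (SD, n = 2 each), which differ by 46.2 points (p = 0.333, two-sided exact permutation test). With the other 4 introns all excised, the difference was 53.4 points.

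**Figure D2:**
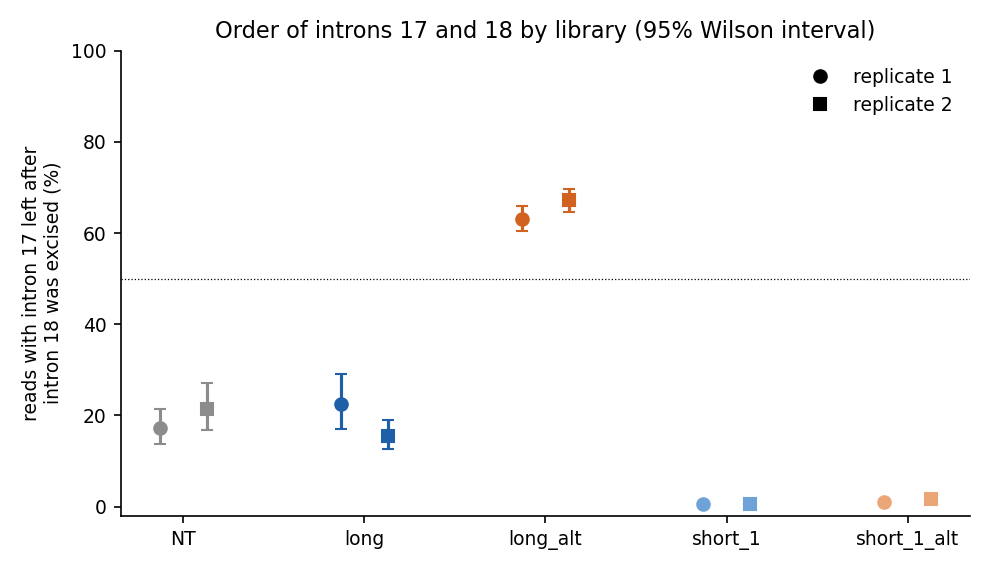
Percent of reads with intron 17 retained and intron 18 excised, out of reads with exactly 1 of both retained, by library with its 95% Wilson interval (counting error only). Only the 2 long_alt libraries, at 63.2% and 67.2%, lie above the dotted line at 50%.

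The same order measure was set beside the short_1 minigene, which ends in exon 19 and so lacks introns 19 and 20. Short minigenes were amplified with a reverse primer in exon 19 and their reads kept over introns 15 to 18. Effects of the architecture and of the amplicon cannot be told apart. Intron 17 was left after intron 18 in 0.451% and 0.557% of such reads of short_1 and in 1.10% and 1.70% of those of short_1_alt, which carries the same allele. The 2 groups did not overlap in either architecture, and intron 18 was the one left in nearly all such reads of both short minigenes. Over all reads kept, intron 18 was retained in 63.2% and 70.9% of short_1 and in 78.6% and 80.1% of short_1_alt. Intron 17 was retained in 7.93% and 17.6% of short_1 and in 22.5% and 33.5% of short_1_alt. Its mean differed by 15.25 points, against 3.42 points in the long architecture. A low order share is thus not a low retention of intron 17. The allele's difference in the order share was 46.2 points in the long and 0.893 points in the short architecture. Its mean over both was 23.5 points (p = 0.0556 of 36 exchanges of the allele within each architecture, two-sided exact permutation test, the smallest p possible). The difference between these effects was 45.3 points (p = 0.333 in the same exact test). On the scale of log odds, the effects were 2.09 and 1.01 (exact permutation p = 0.444 for their difference). Where both effects have the same direction and no overlap, this test cannot give a p under 0.333, however large the gap. It therefore cannot decide whether the allele acts differently in the 2 architectures, and the size of the gap depends on the scale.

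Retention counted over all reads kept showed intron 17 as the only intron of the 6 (16.7%) that was higher in both long_alt libraries than in both long libraries. Intron 17 was retained in 0.309% and 1.49% of the reads of long and in 2.70% and 5.94% of those of long_alt. The means were 0.901% ± 0.838 and 4.32% ± 2.29 (SD, n = 2), 4.79-fold apart (p = 0.333, two-sided exact permutation test). Without long_alt replicate 2, the difference of 3.42 points was 1.80 points. The NT libraries, at 1.53% and 1.38%, lay near the higher long library and below both long_alt libraries. Intron 18 was retained in 0.730% and 2.80% of the reads of long and in 1.95% and 4.34% of those of long_alt, and the groups overlapped (p = 0.667, exact permutation).

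The other 4 introns overlapped between the alleles as well. Intron 16 was retained in 0.209% and 1.19% of the reads of long and in 0.310% and 1.75% of those of long_alt. Intron 19 ranged from 0.0957% to 1.46% over the 4 libraries, intron 15 from 0.117% to 0.816% and intron 20 from 0.101% to 0.748%. In both groups the library numbered 2 had more retention of every intron than the library numbered 1. Compared within a number, long_alt was above long in both numbers for introns 15 to 19, though narrowly for intron 15 in number 1 (0.125% against 0.117%). For intron 20 it was above long in number 2 only. The labels do not say whether a shared number marks a shared batch. Reads with all 6 introns retained came only from libraries numbered 2 (36 in long, 48 in long_alt and 27 in NT). With the fully unspliced reads left out, the difference for intron 17 was 3.41 points.

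**Figure D3:**
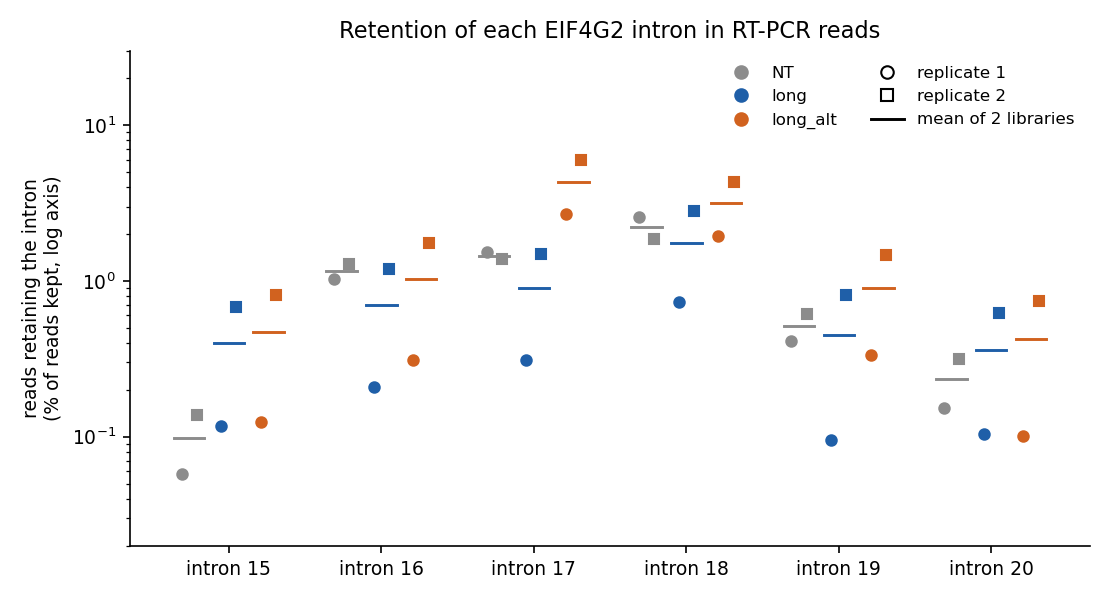
Percent of reads kept that retained each intron (log axis), by library, with the mean of the 2 libraries as a line. At intron 17 both long_alt points (2.70% and 5.94%) lie above both long points (0.309% and 1.49%); at the other 5 introns the 2 groups overlap.

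Intron 17 also differed in the reads in which intron 18 was already gone. Intron 17 was retained in 0.214% and 0.340% of the long reads with intron 18 excised and in 2.04% and 3.60% of such long_alt reads. The NT libraries had 0.283% and 0.193%. The mean of long_alt was 10.2-fold that of long, and both long_alt libraries were above the 4 others. The reverse measure, intron 18 retained in reads with intron 17 excised, was 0.649% and 1.69% in long and 1.10% and 1.69% in long_alt. It overlapped, and its mean of 1.39% in long_alt was 0.222 points above that of long.
In reads that held intron 18, intron 17 was retained too in 16.1% and 42.0% of long and in 50.3% and 67.1% of long_alt reads, against 49.0% and 63.2% in NT. The difference of 29.7 points was 16.7 points without long replicate 1. In reads that held intron 17, intron 18 was retained too in 38.0% and 78.6% in long and in 36.3% and 49.1% in long_alt, with overlap, and in 82.2% and 85.8% in NT.

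A splice site counts as not used when a read has no junction there although the intron was not retained whole. The 3′ splice site of intron 17 was not used in 6.03% and 3.39% of the reads of long, 9.49% and 9.94% of those of long_alt and 0.281% and 0.174% of those of NT. The mean was 2.06-fold higher in long_alt, at 9.72% ± 0.315 against 4.71% ± 1.87 (SD, n = 2). Most of these reads joined over other sites too. Reads that used the 5′ splice site of intron 17 but not its 3′ splice site were rarer and differed more: 0.165% and 0.108% in long and 0.875% and 0.913% in long_alt, a 6.55-fold ratio of the means. The 5′ splice site of intron 17 alone was left out in 1.20% and 0.762% of the reads of long and in 0.453% and 0.539% of those of long_alt. Both long_alt libraries were thus above long for the loss of the 3′ splice site alone and below long for the loss of the 5′ splice site alone.

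Within the first of these classes, some reads kept exon 18 and its 5′ splice site, so that the 5′ splice site of intron 17 was joined to another 3′ splice site before intron 18. Such reads numbered 12 and 14 in long (0.0522% and 0.0520%), 13 and 18 in NT (0.0537% and 0.0651%) and 240 and 199 in long_alt (0.525% and 0.620%). The long libraries were at the level of NT, and the mean of long_alt was 10.99-fold that of long. In the short architecture the same class had 0.0334% and 0.0501% of reads in short_1 and 0.0662% and 0.162% in short_1_alt. The status files do not hold the position of the other site.

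Skipping of exons 17 to 20 was higher in both long_alt libraries than in both long libraries, which makes 4 of the 5 internal exons (80%). An exon was called skipped when neither the 3′ splice site before it nor the 5′ splice site after it was used. A read that lacked several exons counts for each of them, so the 4 exons are not separate results. Reads with exon 16 joined to exon 21, which lack all 4, had means of 2.76% in long and 5.60% in long_alt. Exon 18, which follows the 3′ splice site with the allele, was skipped in 5.75% and 3.16% of the reads of long and in 8.74% and 9.03% of those of long_alt. The means were 4.46% ± 1.83 and 8.88% ± 0.209 (SD, n = 2), a difference of 4.43 points (p = 0.333, two-sided exact permutation test). NT skipped exon 18 in 0.219% and 0.0832% of reads. Both minigene groups were thus above NT, and long_alt was above long.
Exon 17 was skipped in 6.41% and 3.63% of the reads of long and in 8.60% and 9.12% of those of long_alt. For exon 19 the values were 6.91% and 4.10% against 8.98% and 9.50%, and for exon 20 they were 4.53% and 2.27% against 5.83% and 6.47%. Exon 16 was skipped in 0.103% to 0.196% of the reads of the 4 libraries, with overlap. The differences for exons 17, 19 and 20 were 3.84, 3.74 and 2.75 points, and without long replicate 2 they were 2.45, 2.33 and 1.61 points.

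Skipping of 1 exon alone separated the exons more than the totals did. Exon 18 was the only exon skipped in 18 and 17 reads of long (0.0783% and 0.0632%), in 128 and 73 reads of long_alt (0.280% and 0.227%) and in no read of NT, where 3 counts would be 0.0124% and 0.0108%. It was the only 1 of the 5 exons (20%) whose skipping alone was higher in both long_alt libraries, with a 3.59-fold ratio of the means. Exon 17 was the only exon skipped in 0.748% and 0.520% of the reads of long and in 0.341% and 0.408% of those of long_alt. It was the only 1 of the 5 (20%) that was lower in both, and its difference of -0.259 points was -0.145 points without long replicate 1. Exon 19 alone was skipped in 0.974% and 0.810% against 0.816% and 0.876%, and exons 16 and 20 alone in at most 0.0565% of reads, all with overlap.

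**Figure D4:**
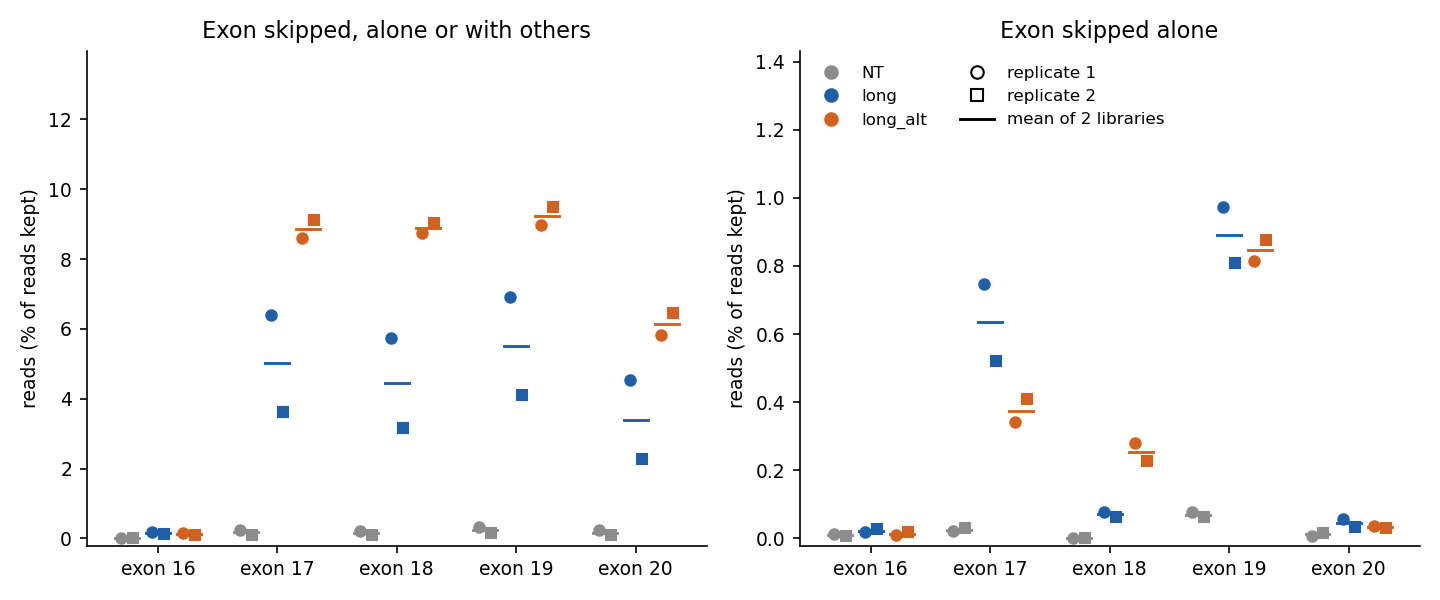
Percent of reads kept in which an exon was skipped, alone or with others (left) and as the only exon (right), by library, with the mean of 2 libraries as a line; the vertical scales differ. Exons 17 to 20 are higher in both long_alt libraries on the left, whereas on the right only exon 18 is higher (0.280% and 0.227%) and exon 17 is lower (0.341% and 0.408%).

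Most skipping took several exons at once. Reads that lacked 4 exons made up 4.04% and 1.97% in long and 5.54% and 6.09% in long_alt. Reads that lacked 3 exons made up 1.15% and 0.780% against 2.10% and 1.98%. Both classes were higher in both long_alt libraries, with 1.94-fold and 2.12-fold ratios of the means. For reads that lacked 1 exon the groups overlapped, at 1.87% and 1.45% against 1.48% and 1.56%. A transcript without exons 17 to 20 is 892 nt shorter than the fully spliced one and a transcript with intron 17 is 83 nt longer, and the part of product length in the amplification was not tested.

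Each read was then counted by the full combination of its 6 intron statuses. The 4 libraries held 274 combinations, and the 72 with 10 or more reads in any of them took in at least 99.3% of the reads of each library. This limit is on read numbers, and both long_alt libraries held more reads than both long libraries. A combination could thus pass more easily through long_alt, which favours those that were higher there. The counts that follow are therefore descriptions. Of the 72, 19 (26.4%) were higher in both long_alt libraries than in both long libraries and 12 (16.7%) were lower. By the status of intron 17, 5 of the 13 combinations with intron 17 retained were higher and none of the 13 was lower. Of the 24 combinations in which the 3′ splice site of intron 17 was not used, 13 were higher and 2 were lower. Among the 26 with intron 17 excised, 1 was higher and 4 were lower. The 9 combinations in which only the 5′ splice site of intron 17 was not used had 6 that were lower and 0 that were higher.

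edgeR's quasi-likelihood test with Benjamini-Hochberg adjustment over the 72 combinations called 1 of them higher in long_alt (1.39%) and 0 lower, and 8 had an unadjusted p under 0.05, all of them higher. The combination called was the read with intron 17 retained and the other 5 introns excised. It had 28 and 47 reads in long (0.122% and 0.175%) and 722 and 855 reads in long_alt (1.58% and 2.66%), against 54 and 28 reads in NT. Its log2 fold change was 3.83 with an SE of 0.52 (adjusted p = 0.0404). Both long_alt libraries were thus well above the 4 others, but the call needed all 4 libraries of the comparison. The adjusted p was 0.249 without long replicate 1, 0.283 without long replicate 2, 0.552 without long_alt replicate 1 and 0.367 without long_alt replicate 2, with log2 fold changes of 3.41 to 4.16.

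The read with intron 17 joined to another 3′ splice site and the other 5 introns excised, a combination singled out after its values were seen, had 12 and 14 reads in long and 230 and 189 reads in long_alt. Its log2 fold change was 3.38 with an SE of 0.55, and edgeR's adjusted p was 0.0510. Of the 12 alternative fits, 7 called it, with adjusted p-values from 4.1e-07 to 0.552. The read that lacked exon 18 alone with all other sites used, also singled out afterwards, had 8 and 4 reads in long and 96 and 55 reads in long_alt, with a log2 fold change of 2.93 (edgeR's adjusted p = 0.186).

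The most frequent combinations show what the rest of the transcripts looked like. Every intron was excised in 79.6% and 84.3% of the reads of long and in 77.4% and 75.4% of those of long_alt, a log2 fold change of -0.10 (edgeR's adjusted p = 0.750). The difference of the means was -5.56 points (p = 0.333, exact permutation). Without long replicate 2 it was -3.18 points, with a log2 fold change of -0.0588. The next was the read in which only the 5′ splice site of intron 18 was not used, with 10.2% and 6.13% in long and 7.29% and 4.66% in long_alt, which overlapped.

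Among the frequent combinations, 3 joined exon 16 to exon 19, 20 or 21. Exon 16 was joined to exon 21 with intron 15 excised in 3.85% and 1.65% of the reads of long and in 5.35% and 5.72% of those of long_alt, to exon 20 in 0.739% and 0.461% against 1.76% and 1.53%, and to exon 19 in 0.239% and 0.156% against 0.507% and 0.520%. All 3 lacked exon 18 and were higher in both long_alt libraries, with log2 fold changes of 1.01, 1.46 and 1.38 (edgeR's adjusted p = 0.493, 0.340 and 0.398). The value for exon 21 was 1.75 without long replicate 1 and 0.52 without long replicate 2. Exon 16 joined to exon 18, which lacks exon 17 but uses the 3′ splice site of intron 17, went the other way, with 0.487% and 0.334% in long and 0.190% and 0.199% in long_alt (log2 fold change -1.07, edgeR's adjusted p = 0.520). Exon 18 joined to exon 20 was 0.717% and 0.613% in long and 0.601% and 0.570% in long_alt.

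Reads with introns 17 and 18 both retained and the other 4 excised numbered 13 and 84 in long (0.0565% and 0.312%) and 323 and 390 in long_alt (0.706% and 1.22%). The log2 fold change was 2.37 with an SE of 0.90 (edgeR's adjusted p = 0.398), and it was 1.62 without long replicate 1 and 4.08 without long replicate 2. Reads with only intron 18 retained had 0.548% and 1.35% in long and 0.818% and 1.11% in long_alt, with overlap. Their log2 fold change was 0.02 with an SE of 0.57, and it ran from -0.48 to 0.82 with 1 library left out. A difference in either direction was thus not excluded. Reads with only intron 15, 16, 19 or 20 retained stayed at or under 0.260% in every library and overlapped between the alleles.

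**Figure D5:**
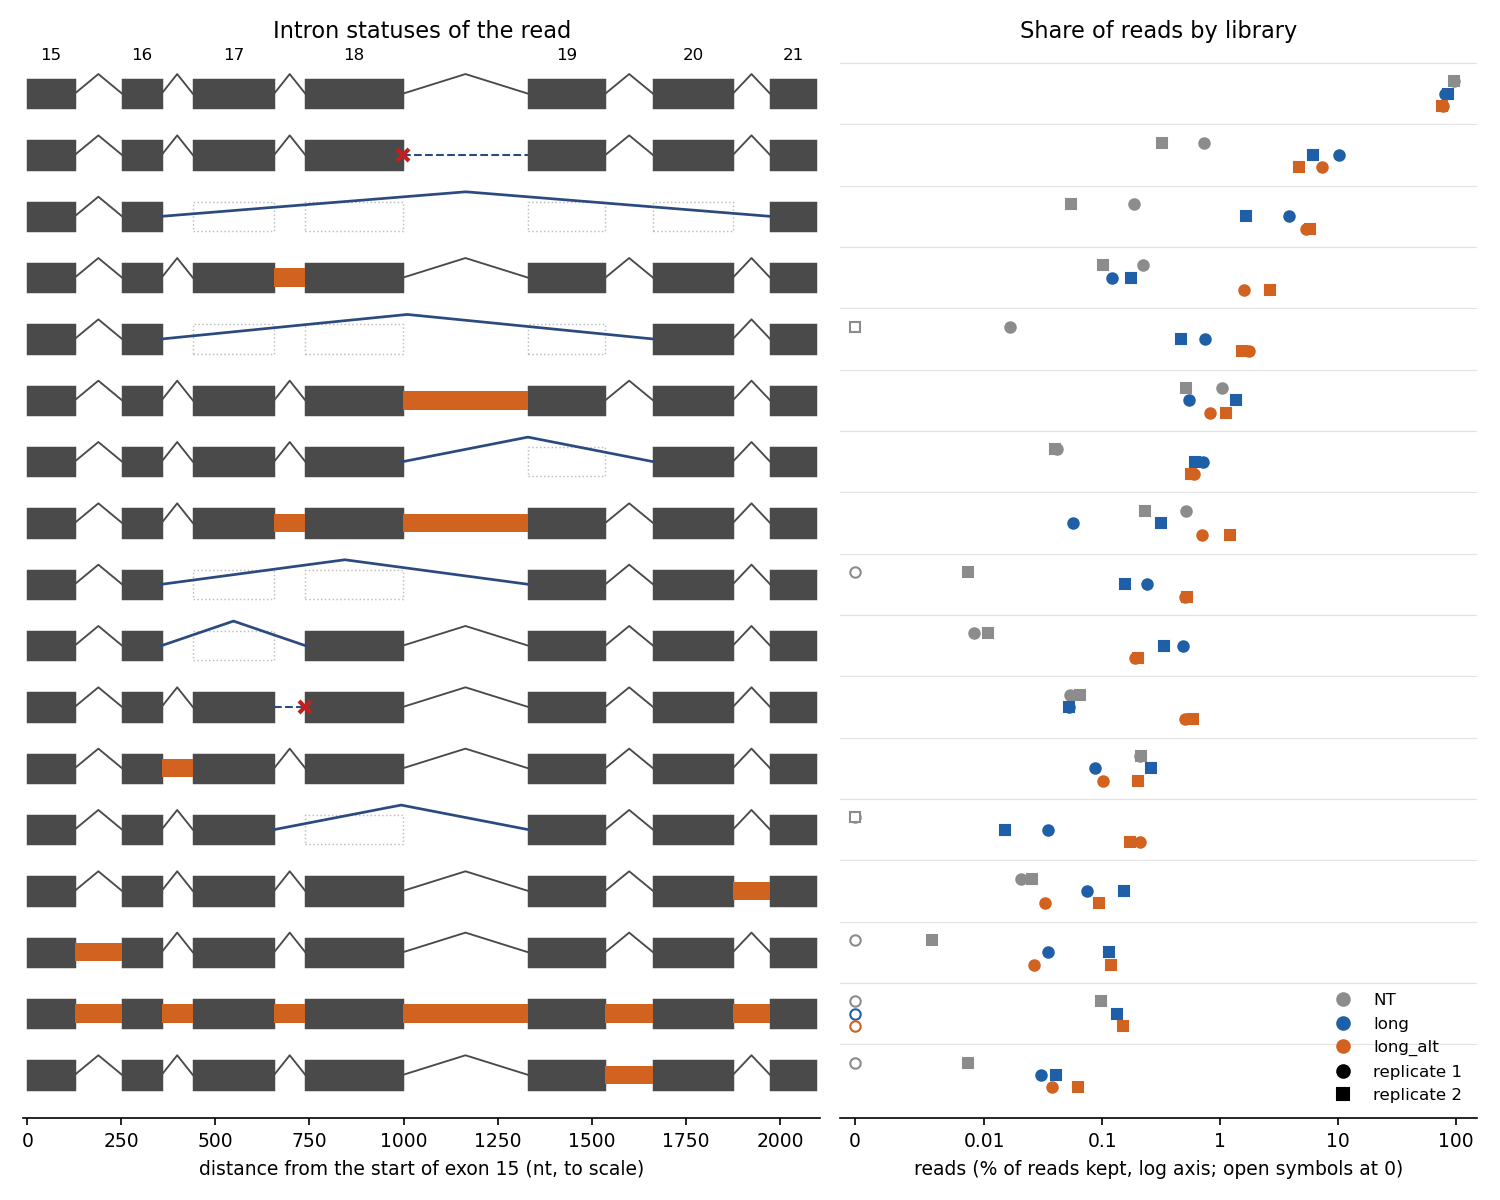
Left, the combinations named in the text, ordered by their mean share and drawn to scale with exons 15 to 21 as boxes, excised introns as thin peaks, retained introns as orange bars, skipped exons as dotted boxes under the joining line, and a red cross at a splice site not used while the site used in its place is unknown. Right, their percent of reads by library on a log axis, with open symbols for 0; the row with intron 17 alone retained has 1.58% and 2.66% in long_alt against 0.122% and 0.175% in long.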

How the data were processed

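Nanopore reads of RT-PCR amplicons were used from 2 libraries each of NT, long, long_alt, short_1 and short_1_alt. The authors basecalled the reads, made spliced alignments to GRCh38 with minimap2, kept unique ones and deposited raw counts per combination of intron statuses: excised, retained, undetermined, or skipped, where 1 or both of the intron's splice sites were not used. Reads over exactly introns 15 to 20 (15 to 18 for short minigenes) with no undetermined status were kept, and skipped introns stayed in the denominator. Library percentages were compared by two-sided exact permutation. Combinations with 10 or more reads in any long or long_alt library were tested on counts with edgeR 4.0.16 (library size: all reads kept, no TMM factors, no replicate term) in R 4.3.3 at an adjusted p of 0.05. The fit was first run on simulated counts. These were drawn independently for each library and lacked the shift that long and long_alt libraries of the same number share, so that run does not cover it. The SE beside a log2 fold change of edgeR was derived from its F statistic, as the absolute log2 fold change divided by the square root of F. DESeq2 1.42.0 and the other alternatives are given in the closing section. Percentages were computed in Python 3.11.15 with SciPy 1.17.1. Named were all introns and exons, and combinations that were called, among the 10 most frequent, or had 1 intron, introns 17 and 18, or all 6 introns retained, apart from those said to be chosen later. The members and lists were chosen with earlier results of these data known. Splice site sequences and coordinates come from GRCh38 and GENCODE 44. Direct RNA libraries and the plasmid sequence were not used here.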

Additional observations from a re-analysis of the deposited data

Results flagged for a closer look

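Skipping of exon 17 differed in direction between the architectures. It was 3.84 points higher in long_alt than in long and was -0.357 points from short_1 in short_1_alt, and the difference of these effects was 4.20 points (p = 0.0556, two-sided exact permutation with the allele exchanged within each architecture, the smallest p of 36 exchanges). Exon 17 was picked from several measures because its groups separated in opposite directions in the 2 architectures. That separation alone fixes this p at its smallest value, so the p is no separate test of the difference. The 2 architectures were also amplified with different reverse primers.

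Some kinds of reads outside the comparison were more frequent in all 4 minigene libraries than in both NT libraries, and others were less frequent. Reads over introns 16 to 20 only, which lack the status of intron 15, made up 3.60% to 3.76% of the reads of the 4 libraries. Reads over introns 15 and 16 only made up 0.706% to 1.12%, those over introns 15 to 17 only 0.367% to 0.601%, and reads over introns 15 to 20 with an undetermined status 0.701% to 0.850%. The less frequent kinds were reads over introns 15 to 19 only (0.812% to 0.941%, against 1.001% and 1.06% in NT), over introns 17 to 20 only (0.351% to 0.445%, against 0.506% and 0.507%) and over introns 19 and 20 only (0.176% to 0.268%, against 0.383% and 0.319%). The reads over introns 16 to 20 are other reads of the same libraries, and they retained intron 17 in 0.224% and 1.79% of long and in 3.07% and 5.56% of long_alt. In these reads intron 17 was left after intron 18 in 0 of 13 and 5 of 24 reads of long (at most 22.8% by the 95% Wilson interval in the first) and in 40 of 63 and 30 of 44 reads of long_alt.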

How the results depend on the processing

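The main limit is that 2 libraries a group cannot reach p under 0.333 by permutation, and that replicates differed by more than counting error. For the 6 percentages compared between long and long_alt by a planned test, none of 59 alternative values other than those with a library left out changed direction. Without each library in turn, the differences ranged from 1.80 to 5.04 points for intron 17 retention, from 0.182 to 2.58 for intron 18 retention, from -7.93 to -3.18 for reads with every intron excised, from 45.6 to 50.6 for intron 17 as the single intron left, from 42.7 to 49.7 for the order and from 3.13 to 5.72 for exon 18.

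The edgeR count of 1 combination was 2 with TMM, with DESeq2, with 10 or more reads in at least 2 libraries, with NT in the fit and with fully unspliced reads left out (an alternative chosen after seeing the data), 3 with no filter on low counts, and 0 without any 1 library (3 to 9 at an unadjusted p under 0.05). The cause was not tested, except that a fit without a library has fewer samples. With the replicate block it was 13 combinations, 12 higher and 1 lower. These took in the combination with introns 17 and 18 both retained (edgeR's adjusted p = 2.4e-05), exon 16 joined to exon 19, 20 or 21 (0.0196, 0.0120 and 0.0118), exon 18 alone lacking (3.3e-06) and intron 17 joined to another 3′ splice site (4.1e-07), none of which passed in the fit that the report gives. The labels give only the number, which long and long_alt share; their deviations from the group means correlated at 0.838, and those of long and long_alt with NT at 0.173 and 0.191 over 72 combinations. The block could not change the differences of the percentages. With 2 libraries a group, the mean of the differences within a number is the difference of the group means. Those values are among the 59 alternatives above.

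Directions turned for results that overlapped between the groups and for 1 that did not, intron 19 as the single intron left. With replicates pooled, intron 15 retention differed by -0.0108 and intron 20 retention by -0.0151 points. With combinations of fewer than 10 reads left out, intron 19 as the single intron left, lower in both long_alt libraries otherwise, differed by 0.489 points. Intron 18 retained alone had a log2 fold change of -0.20 with DESeq2, and all 6 introns retained -0.25 with DESeq2 and -0.0702 with TMM. Without each library, the range crossed 0 for retention of introns 15 (-0.274 to 0.418 points), 16 (-0.388 to 1.05), 19 (-0.116 to 1.01) and 20 (-0.262 to 0.385), exon 16 skipped (-0.0688 to 0.000543), any intron skipped (-1.45 to 5.87), only the 5′ splice site of intron 18 not used (-3.93 to 0.386), intron 18 retained among reads retaining intron 17 (-35.9 to 4.64) and among reads with intron 17 excised (-0.300 to 0.744). It also crossed 0 for the log2 fold changes of the combinations with intron 18 alone retained (-0.48 to 0.82), intron 15 alone (-1.51 to 1.04), intron 16 alone (-0.80 to 0.78) and all 6 introns (-7.43 to 7.64).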

Other observations

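Reads with several retained introns were counted too. Reads with 2 retained introns made up 0.152% and 0.691% in long and 0.905% and 1.75% in long_alt, so that the long_alt libraries were above the long libraries and also above the NT libraries, at 0.776% and 0.474%. Reads with 3 retained introns made up 0.0565% and 0.420% in long and 0.245% and 0.891% in long_alt, with overlap. Those with 4 made up 0.00870% and 0.260% against 0.0262% and 0.486%, with overlap as well. Among reads that held intron 16, which lies upstream of intron 17, intron 17 was retained too in 45.8% and 69.1% of long and in 57.7% and 82.0% of long_alt, and in 64.0% and 75.7% of NT. The reads that held intron 16 numbered 48 and 320 in long and 142 and 562 in long_alt.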
